A study of Aspergillus nidulans with 38 samples.

Results

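The 10 genes described here make, lengthen, cut or cross-link β-glucan in the cell wall of *Aspergillus nidulans*, a filamentous ascomycete. They were chosen by name, as AN numbers, and all 10 were found in the count tables of 9541 genes. The 10 are *fksA* (AN3729), *gelA* (AN7657), *btgE* (AN1551), *engA* (AN0472), *eglC* (AN7950), *exgD* (AN7533), *exgB* (AN3777), *crh1* (AN0933), *crhA* (AN3914) and *crhB* (AN4515). The study had itself listed 8 of them, every one but *fksA* and *eglC*, among wall genes that changed in these same libraries, so their direction here is not independent evidence of it. In the study's list *gelA*, *engA* and *crhB* had p-values above its own threshold for a changing gene. RNA was sequenced from the parental strain A1405, grown in shake flasks for about 20 h at 28 °C and then given micafungin, at 20 ng per ml of culture and per g/kg of biomass. Each of 3 biological replicates was 1 flask, sampled in series at 13 time points from 0 min, before the drug, to 120 min, which gave 38 libraries. Every time point had 3 libraries except 15 min, which had 2. Every flask received micafungin, with no untreated flask beside it, so the drug and the age of the culture cannot be told apart.

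Micafungin is an echinocandin, a class of antifungal that blocks β-1,3-glucan synthase at the plasma membrane. β-1,3-glucan is the main load-bearing polysaccharide of the wall of growing hyphae. New chains leave the synthase as linear strands and are then remodelled outside the membrane: glucanosyltransferases lengthen and join them, branching enzymes tie them into the existing network, glucanases cut them so that the wall can be extended, and transglycosidases of the CRH family link them to chitin. The comparison over time asks how the transcripts of the synthase and of the remodelling enzymes moved after micafungin was added. How far the synthase was blocked in these flasks was not measured here.

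The libraries held 5814843 to 10846567 counted reads, with a median of 7964987.5, and 8290 genes, including all 10, had reads in at least 2 libraries at every time point. Levels are given as CPM, read counts scaled to a common library size with TMM factors. Gene lengths were not used, so CPM values are compared between libraries and never between genes. At least 413 reads stood behind each value of 9 of the 10 genes, and *exgB* had 8 to 77 reads per library. Together the 10 genes took a share of the counted reads of 0.849% ± 0.034 (SD, n = 3 flasks) at 0 min, which stood at 0.750% ± 0.093 by 120 min.

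The 10 genes parted into those that fell and those that did not, and none was called higher than at 0 min at any later time in the fit of all libraries. In a fit of the 36 libraries of 12 time points by edgeR's quasi-likelihood test, with the flask as a block and p-values adjusted over all 8290 genes, 1 of the 10 was called lower at 30 min, a call absent in 9 of the 14 other settings tried, and the same number at 40 min. The background was 0.639% of all genes called lower at 30 min and 1.27% at 40 min. Up to 25 min none of the 10 was called, when the share of all genes called lower was at most 0.205%. At 50 min 3 of the 10 were called lower, against 2.8% of all genes, and at 60 min 3 of the 10, against 3.82%. By 75 min 5 of the 10 were lower, against 6.83% of all genes, at 90 min 4 of the 10, against 8.61%, and at 120 min 5 of the 10, against 12.5%. The genes called lower at 60 min were *btgE*, *crh1* and *crhB*, and those at 120 min were *btgE*, *exgD*, *exgB*, *crh1* and *crhA*. The same 5 genes were the only ones of the 10 whose 3 libraries at 120 min all lay below the 3 libraries at 0 min, a pattern shown by 15.9% of all genes. Of all genes, 0.0362% were called higher after 5 min and 0.181% after 25 min. This share was 1.17% by 30 min, 1.79% by 40 min and 3.35% by 50 min, and from 60 through 75 and 90 to 120 min it was 5.1%, 8.77%, 11.5% and 16.5%. It held none of the 10 at any time in this fit, and in 1 of the 14 alternatives it held *eglC* at 90 min. In either direction 4 of the 10 had an unadjusted p under 0.05 at 60 min, against 22.8% of all genes, and 6 of the 10 at 120 min, against 39.9%. All of these comparisons share the 3 libraries at 0 min. In RNA from whole mycelium, a change of a transcript within hyphae and a change in the share of hyphae that carry it cannot be told apart.

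**Figure D1:**
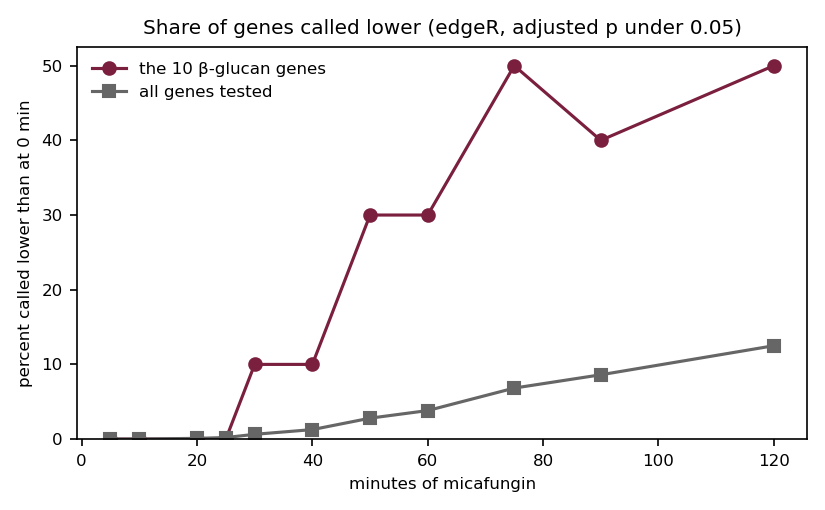
Percent of genes called lower than at 0 min (edgeR, adjusted p under 0.05) on the y axis against minutes of micafungin on the x axis, for the 10 β-glucan genes (circles) and for all 8290 genes tested (squares). The circles stand at 0 up to 25 min, stand above the squares from 30 min, when 1 of the 10 genes is called, and reach 5 of 10 at 75 and 120 min.

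The time at which a gene fell differed within the set. Over the 10 genes the log2 fold change had a median of 0.03 after 5 min, -0.22 after 60 min and -0.47 after 120 min, while that of all genes tested was -0.002, 0.01 and -0.03. A test of all later times together called 7 of the 10 as changing over the course, against 23.3% of all genes; they were the 5 above with *engA* and *crhB*, whose adjusted p-values by edgeR were close to the threshold at 0.0457 and 0.0493. Both were lost with DESeq2 size factors and without the filter on low counts, where 5 of the 10 were called, against 23.2% and 20.8% of all genes. Residuals of neighbouring libraries of the same flask were correlated across genes, with a mean Pearson's r of 0.38 and a range of -0.05 to 0.75 over 33 pairs. Libraries of the same flask are thus not fully independent, and p-values of the fit may be too small. A fit of each later time alone against 0 min, 3 libraries against 3 with the flask as a block, called 0 of the 10 at 60 min and 0 of the 10 at 120 min by edgeR, with 1 and 5 of the 10 at an unadjusted p under 0.05, which 13.1% and 26.5% of all genes had. Of all genes it called 0% lower at 60 min and 1.21% at 120 min.

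*fksA*, the gene of the catalytic subunit of the synthase and so of the target of micafungin, was not called at any time. It stood at 1563, 1812 and 1690 CPM in flasks 1, 2 and 3 at 0 min. At 60 min it had 1403, 1815 and 1590 CPM, and at 120 min 1787, 1957 and 1417 CPM. Flasks 1 and 2 thus ended above their starting level and flask 3 below it, and the libraries of the 2 times overlapped. Across the 36 libraries *fksA* stayed between 1345 and 1957 CPM. Its log2 fold change at 120 min was 0.03 (standard error 0.12), with a 95% interval of -0.21 to 0.26, and the edgeR adjusted p was 0.886. Leaving out flask 1 turned that value to -0.07 and leaving out flask 2 to -0.03, so its sign was not determined. The lowest adjusted p at any time was 0.307 at 75 min, and for the whole course it was 0.667, both by edgeR. A dip was shared by the flasks at 30 min, with 1454, 1404 and 1549 CPM, all below the 0 min libraries. Such a lack of overlap at 30 min was shown by 4.26% of all genes tested. The log2 fold change of -0.19 (standard error 0.12) had an edgeR adjusted p of 0.479 and was not called.

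*gelA* encodes a glucanosyltransferase that lengthens β-1,3-glucan by cutting a strand and joining its end to another. Its level was 2209, 1801 and 1733 CPM at 0 min and 2476, 2209 and 2013 CPM at 25 min, higher in each flask. At 120 min it stood at 1775, 2003 and 1164 CPM. Flask 3 thus ended at 67.2% of its level at 0 min, flask 1 at 80.4% and flask 2 at 111%, so that the 3 flasks did not share a direction. At every time with 3 libraries from 10 to 40 min all 3 flasks were above their own 0 min library. At each such time taken alone, this held for 16.1% to 19% of all genes tested. The log2 fold changes of the fit reached no more than 0.22 and none passed the test. At 120 min the log2 fold change was -0.23 (standard error 0.13) and the edgeR adjusted p 0.179. Without flask 2 the value was -0.45, with an edgeR adjusted p of 0.0384, and against the mean of 0, 5 and 10 min it was -0.30, with 0.0277. Over all 14 alternatives the adjusted p ran from 0.0277 to 0.749.

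*btgE*, annotated as a transglucosylase that ties new β-1,3-glucan chains into the existing network, was called lower from 30 min on in the fit of 36 libraries. It had 1859, 1863 and 2417 CPM at 0 min and 1541, 1358 and 1775 CPM at 30 min. At 60 min it had 1392, 1479 and 1651 CPM, and at 120 min 1326, 1237 and 1452 CPM. At every time with 3 libraries from 10 min on, each flask was below its own 0 min library. At each such time taken alone, this held for 10.5% to 27.6% of all genes tested. At 120 min the flasks stood at 71.3%, 66.4% and 60.1% of their 0 min level. The fit gave a log2 fold change of -0.39 (standard error 0.10, edgeR adjusted p = 0.0461) at 30 min, the first time at which any of the 10 was called. In 9 of the 14 alternatives none of the 10 was called lower at 30 min, among them each of the fits without 1 flask and that without the block. The log2 fold change was -0.43 (standard error 0.10, edgeR adjusted p = 0.00865) at 60 min and -0.60 (standard error 0.10, edgeR adjusted p = 0.000100) at 120 min. Much of the fall was over by 50 min, when the log2 fold change was already -0.50, and neither the step from 30 to 60 min (-0.04) nor that from 60 to 120 min (-0.17) passed the test. The call at 60 min was lost without flask 1 (-0.45, edgeR adjusted p = 0.249), without flask 3 (-0.37, edgeR adjusted p = 0.120), without the block and in the fit of 3 libraries against 3, and the adjusted p of its 14 alternatives ran from 9.7e-05 to 0.419. At 120 min it was lost in 1 of the 14 alternatives, the fit of 3 libraries against 3 (-0.58, edgeR adjusted p = 0.137), and the adjusted p otherwise stayed under 0.05.

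**Figure D2:**
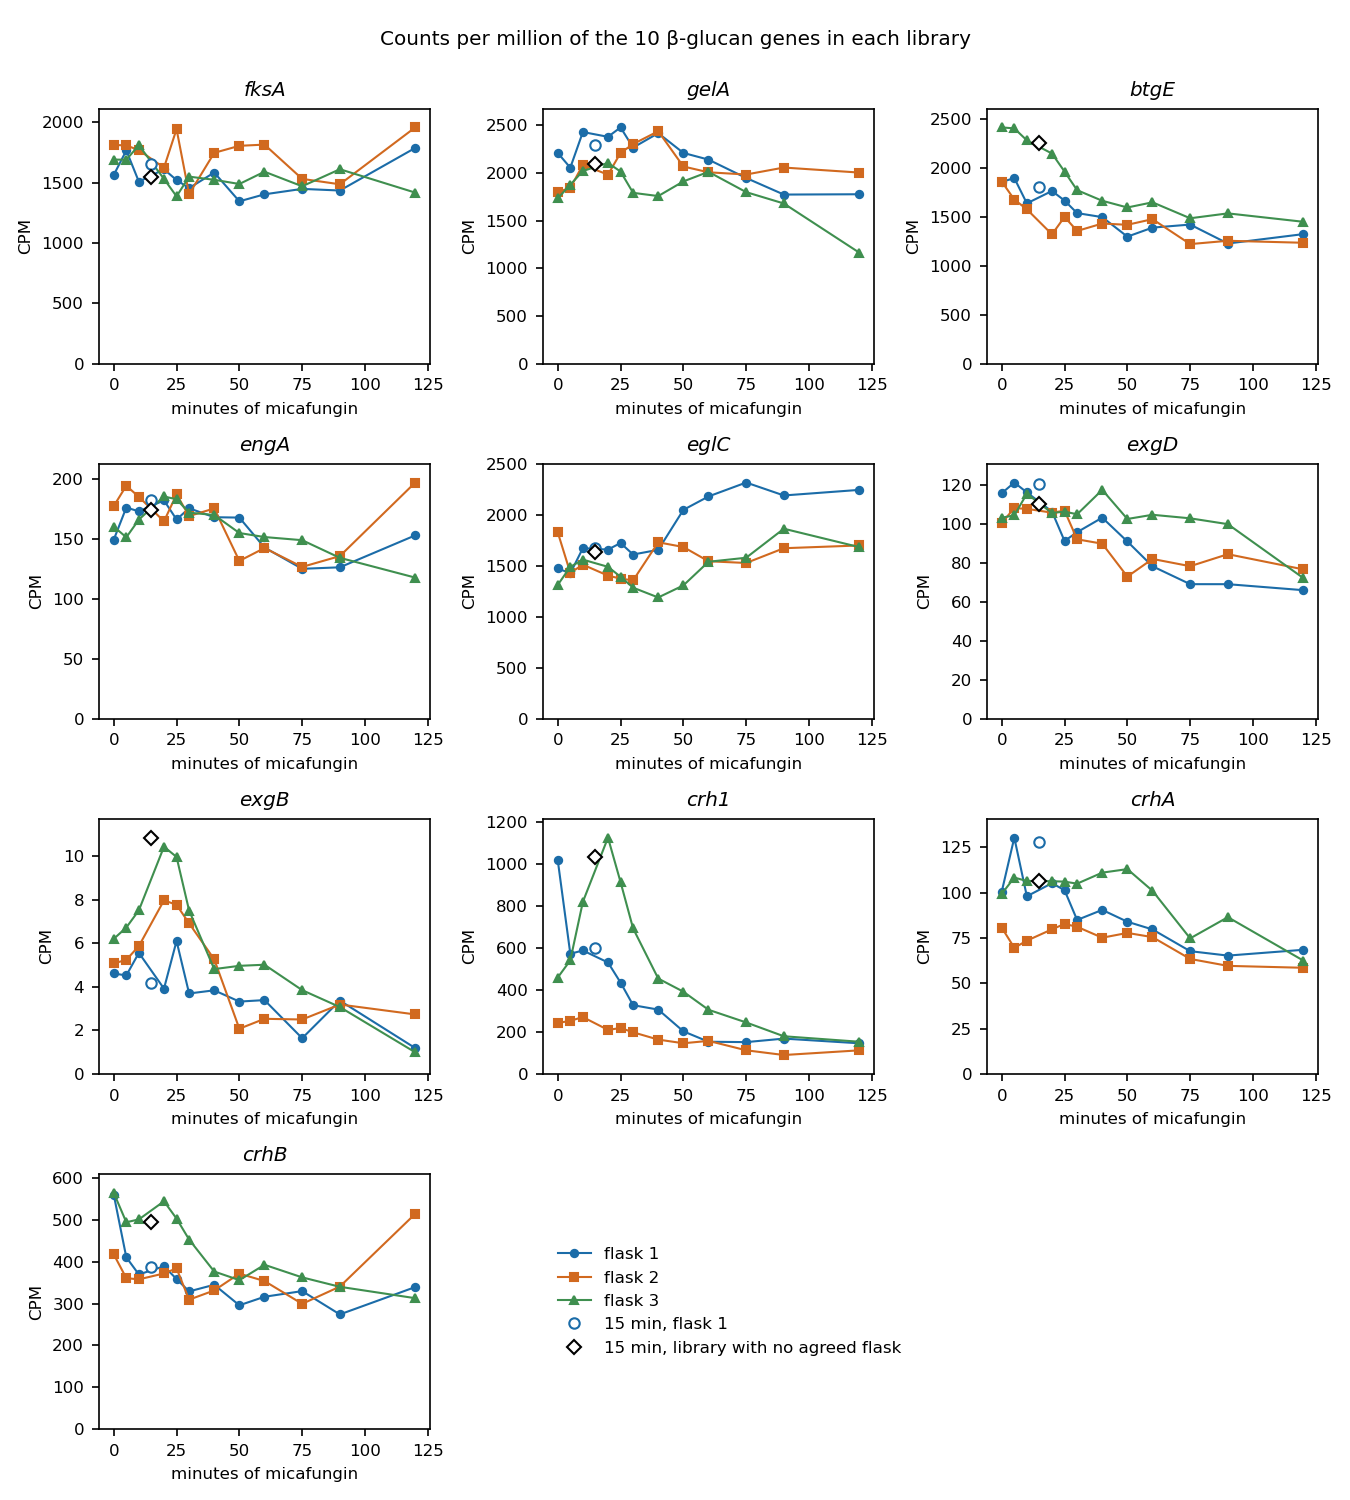
CPM in each library (y axis, from 0) against minutes of micafungin (x axis) for each of the 10 genes, with 1 line for each flask, an open circle for flask 1 at 15 min and an open diamond for the 15 min library whose label and column name give different flasks. *btgE* falls in all 3 flasks from 0 to 120 min, *fksA* stays between 1345 and 1957 CPM, and *crh1* starts at 3 different levels and ends within a range of 112 to 153 CPM.

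The 4 glucanases did not move as a group: *exgD* and *exgB* fell by 120 min, while *engA* and *eglC* passed the test at no single time. *engA*, which encodes an endo-β-1,3-glucanase that cuts within chains, had 149.5, 177.6 and 160.5 CPM at 0 min. It had 126.5, 135.9 and 134.4 CPM at 90 min, below 0 min in every flask, as were 18.8% of all genes tested. At 120 min it had 153.2, 197.3 and 117.9 CPM, and only flask 3 was below its starting level. The log2 fold change was -0.30 (standard error 0.13, edgeR adjusted p = 0.0999) at 90 min and -0.06 (standard error 0.13, edgeR adjusted p = 0.737) at 120 min. The value at 120 min turned to 0.10 without flask 3. Flasks 1 and 2 were lowest at 75 min, and flask 3 at 120 min.

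*eglC* encodes a β-1,3-glucanase attached to the membrane or wall by a lipid anchor, and it was the gene of the 10 with the highest fitted value at 120 min. It had 1477, 1833 and 1316 CPM at 0 min, and 2249, 1703 and 1687 CPM at 120 min. Flask 1 reached 152% of its starting level and flask 3 128%, while flask 2 stood at 92.9%. The log2 fold change was 0.27 (standard error 0.14, edgeR adjusted p = 0.163) at 120 min and 0.30 (standard error 0.14, edgeR adjusted p = 0.149) at 90 min, and neither passed the test. Against the mean of 0, 5 and 10 min the value at 90 min was 0.32 (standard error 0.11, edgeR adjusted p = 0.0426), past the threshold. At 60 min it was 0.17 (standard error 0.14) and turned to -0.03 without flask 1. Flask 1 was above its 0 min library at every time from 10 min on, and flask 2 was below its own at every time from 5 min on, so the flasks kept opposite directions through the course.

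*exgD* encodes an exo-β-1,3-glucanase, which trims glucan chains from their ends. Its level was 115.9, 100.7 and 103.4 CPM at 0 min, and 78.38, 82.15 and 104.8 CPM at 60 min. At 120 min it was 66.1, 76.8 and 72.36 CPM. Flask 3 stayed between 102.7 and 117.6 CPM up to 75 min and fell between 90 and 120 min, whereas flask 1 had done most of its fall by 75 min. The log2 fold change was -0.28 (standard error 0.13, edgeR adjusted p = 0.186) at 60 min and -0.57 (standard error 0.13, edgeR adjusted p = 0.00150) at 120 min. At 120 min the call was lost without flask 1 (-0.46, edgeR adjusted p = 0.0561) and in the fit of 3 libraries against 3 (-0.55, edgeR adjusted p = 0.106), and in none of its other alternatives, where the lowest adjusted p was 6.4e-05.

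*exgB* was the least sequenced of the 10, and it stood higher at 25 min before its fall. The study annotates it as an exo-β-1,3-glucanase and its supplementary description as a β-1,6-glucanase, so its substrate is given here as unsettled. It had 4.61, 5.07 and 6.2 CPM at 0 min, from 27, 51 and 40 reads. At 25 min it had 6.1, 7.76 and 9.955 CPM, from 49, 74 and 75 reads, and at 120 min 1.19, 2.73 and 0.993 CPM, from 9, 25 and 8 reads. Every flask was thus higher at 25 min than at 0 min and lower at 120 min than at either. The higher level at 25 min was not called, and the fall at 120 min had a fitted log2 fold change of -1.64 (standard error 0.33, edgeR adjusted p = 0.000493), a 3.12-fold decrease. Its size depended on the flask, from 1.86-fold in flask 2 to 3.88-fold in flask 1 and 6.24-fold in flask 3. The fit gave -1.01 at 75 min (edgeR adjusted p = 0.0270), and it was not called at 90 min (-0.70, edgeR adjusted p = 0.107). The call at 120 min was lost in the fit of 3 libraries against 3 (-1.71, edgeR adjusted p = 0.101), and the lowest adjusted p of the 14 alternatives was 2.2e-05.

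**Figure D3:**
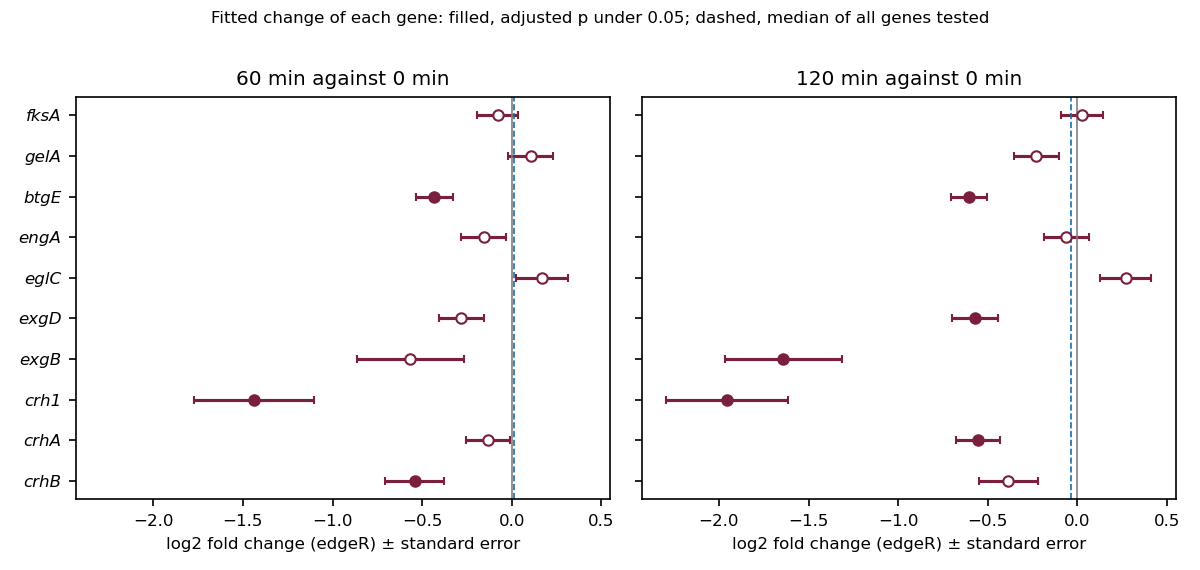
Fitted log2 fold change of each gene over 0 min (x axis) at 60 min (left) and 120 min (right), with bars of 1 standard error from edgeR. Filled points passed an adjusted p of 0.05, open points did not, and the dashed line is the median of all genes tested. At 60 min *btgE*, *crh1* and *crhB* are filled, and at 120 min *btgE*, *exgD*, *exgB*, *crh1* and *crhA*.

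The 3 CRH genes encode transglycosidases that join β-glucan to chitin, and all were called lower at some time, *crh1* and *crhB* from 50 min and *crhA* from 75 min. *crh1* had the widest span between flasks of the 3 at 0 min. It had 1017, 242.2 and 458.3 CPM at 0 min, a 4.2-fold span between the flasks. At 20 min it had 530.1, 209.5 and 1123 CPM, at 60 min 153.2, 157.2 and 305.1 CPM, and at 120 min 145.8, 112.3 and 153.2 CPM, a span of 1.36-fold. Flask 1 fell from the first sample on, flask 3 stood 2.45-fold above its 0 min level at 20 min and lower after it, and flask 2 stayed between 198 and 270.4 CPM up to 30 min. The flasks started apart and ended together.

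The fall of *crh1* over its own 0 min library was 6.97-fold in flask 1, 2.16-fold in flask 2 and 2.99-fold in flask 3. By edgeR its log2 fold change was -1.44 (standard error 0.34, adjusted p = 0.00720) at 60 min and -1.96 (standard error 0.34, adjusted p = 0.000123) at 120 min. The 0 min library of flask 1 weighed heavily on both: its 1017 CPM had dropped to 571.4 CPM in the next sample of that flask, 5 min later. Without this library the value was -0.78 (edgeR adjusted p = 0.130) at 60 min and -1.28 (edgeR adjusted p = 0.00273) at 120 min. Without the whole of flask 1 it was -0.61 (edgeR adjusted p = 0.519) and -1.30 (edgeR adjusted p = 0.0339). At 60 min the call was also lost without the block and in the fit of 3 libraries against 3, and the adjusted p ran from 0.00037 to 0.519. The fall at 120 min passed the test in 13 of 14 alternatives, and in the fit of 3 libraries against 3 it was -1.80 (edgeR adjusted p = 0.0724).

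*crhA* fell late and by a similar amount in each flask. It had 100.5, 80.71 and 99.32 CPM at 0 min, 79.7, 75.46 and 101 CPM at 60 min and 68.47, 58.56 and 62.56 CPM at 120 min. The flasks ended at 68.1%, 72.5% and 63% of their starting level. Its log2 fold change was -0.13 (standard error 0.12, edgeR adjusted p = 0.590) at 60 min and -0.56 (standard error 0.12, edgeR adjusted p = 0.00137) at 120 min. *crhA* was also the only one of the 10 called between 2 later times, with -0.42 (standard error 0.12, edgeR adjusted p = 0.0417) from 60 to 120 min, a step in which 1.97% of all genes were called lower. This step does not rest on the 0 min libraries, but its call was lost with DESeq2 size factors, without the block, whenever 1 flask was left out and in the fit of 3 libraries against 3. The share of all genes called higher in this step was 3.67%, with none of the 10. At 120 min against 0 min the call was lost without the block (edgeR adjusted p = 0.0584), without flask 3 (-0.51, edgeR adjusted p = 0.0504) and in the fit of 3 libraries against 3 (edgeR adjusted p = 0.0867), and the lowest adjusted p of the 14 alternatives was 7.9e-05.

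*crhB* was called lower from 50 to 90 min but not at 120 min. It had 560.3, 417.6 and 564.6 CPM at 0 min, 316.2, 353.7 and 392.6 CPM at 60 min, 274, 340.5 and 340 CPM at 90 min and 339.3, 514.3 and 312.8 CPM at 120 min. At every time with 3 libraries from 5 to 90 min all 3 flasks were below their 0 min library. At each such time taken alone, this held for 10.5% to 18.8% of all genes tested. The 15 min library of unclear flask had 496 CPM, so flask 2 or flask 3 was not followed at that time. At 120 min flask 2 alone was above its 0 min library, at 123%, while flask 3 was at its lowest. The log2 fold change was -0.54 (standard error 0.16, edgeR adjusted p = 0.0383) at 60 min, -0.69 (standard error 0.16, edgeR adjusted p = 0.00391) at 90 min and -0.39 (standard error 0.16, edgeR adjusted p = 0.0799) at 120 min. Without flask 2 the last value was -0.79 (edgeR adjusted p = 0.00176). The call at 60 min was lost without flask 1 (-0.39, edgeR adjusted p = 0.560), without flask 3 (-0.55, edgeR adjusted p = 0.107), without the 0 min library of flask 1 (-0.40, edgeR adjusted p = 0.222) and against the mean of 0, 5 and 10 min (-0.33, edgeR adjusted p = 0.115), as well as without the block and in the fit of 3 libraries against 3, while the lowest adjusted p of its 14 alternatives was 0.0104.

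**Figure D4:**
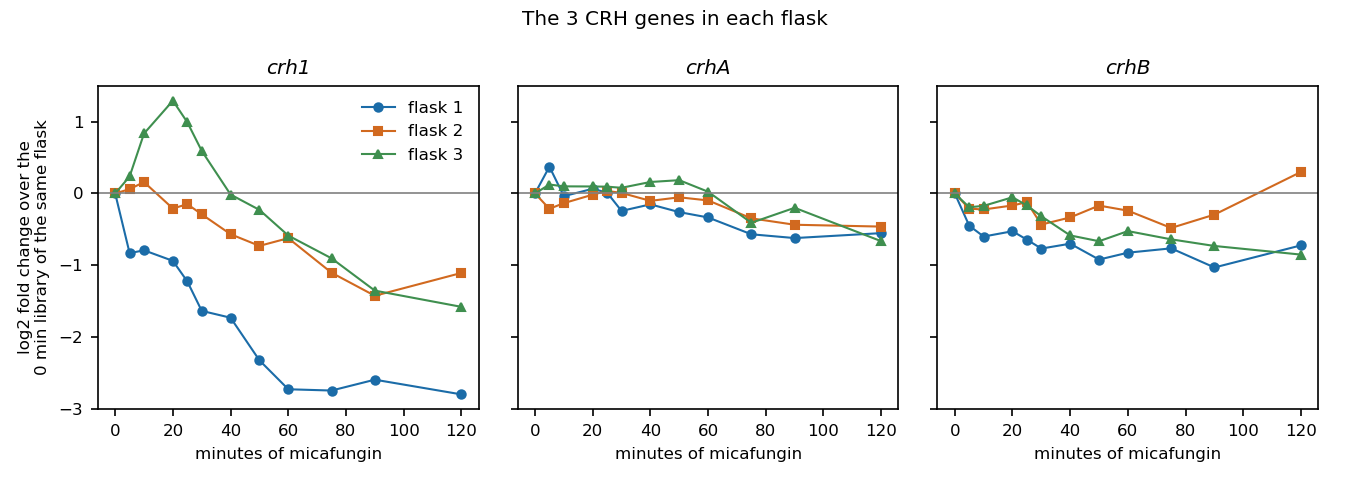
Log2 fold change of *crh1*, *crhA* and *crhB* (y axis) over the 0 min library of the same flask against minutes of micafungin (x axis), with 1 line for each flask. *crh1* of flask 1 is below 0 from 5 min on and that of flask 3 peaks at 20 min, *crhA* reaches -0.46 to -0.67 at 120 min, and *crhB* of flask 2 ends above 0 at 0.30.

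Set against each other within a flask, the CRH genes kept no fixed ratio. The log2 ratio of *crh1* to *crhA* at 120 min, relative to that at 0 min, was -2.25, -0.65 and -0.91 in flasks 1, 2 and 3. The ratio of *crh1* to *crhB* was -2.08, -1.41 and -0.73. Both ratios were lower at 120 min than at 0 min in every flask, whereas that of *crhB* to *crhA* was -0.17, 0.76 and -0.19, with flasks on either side of 0. The log2 ratio of *eglC* to *btgE* moved up in every flask, by 1.09, 0.48 and 1.09. These are log2 ratios of raw read counts with no prior count and no test, given because both genes of a pair were read in the same libraries.

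The steps within the course did not use the 0 min libraries. From 10 to 30 min all 10 genes had a fitted value below 0, with a median log2 fold change of -0.17 against 0.02 for all genes tested, but 0 of the 10 genes was called by edgeR, with 1 at an unadjusted p under 0.05, in a step where 0 of 8290 genes were called and 543 had such a p. From 30 to 60 min the median was -0.06, and again 0 of the 10 was called, with 3 at an unadjusted p under 0.05, against 963 of all genes, of which 0.0121% were called lower and 0.0965% higher. Those 3 were *crh1* at a log2 fold change of -0.84 (standard error 0.33, edgeR adjusted p = 0.332), *exgB* at -0.73 (standard error 0.29, edgeR adjusted p = 0.346) and *eglC* at 0.30 (standard error 0.14, edgeR adjusted p = 0.424). From 60 to 120 min *gelA* had -0.34 (standard error 0.13, edgeR adjusted p = 0.120) and *exgB* -1.08 (standard error 0.33, edgeR adjusted p = 0.0566), beside the call of *crhA*.

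Over the 36 libraries, with each flask's mean removed, *eglC* varied against the other 9 genes, and many of those varied together. The highest Pearson's r of log2 CPM among the 45 pairs was 0.79, for *crh1* with each of *crhA*, *btgE* and *exgB*. *exgD* had an r of 0.78 with both *crh1* and *crhA*. *eglC* had a negative r with each of the other 9, from -0.06 with *fksA* to -0.72 with *exgD*. *fksA* stood apart from most of the set, with an r of 0.01 with *gelA* and 0.03 with *exgB*, and its highest was 0.53 with *crhB*. The median over the pairs was 0.51, and 0.36 when the flask means were kept. These coefficients describe libraries that share flasks and a time order, so any 2 genes that fall over time will correlate, and no p is given.

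**Figure D5:**
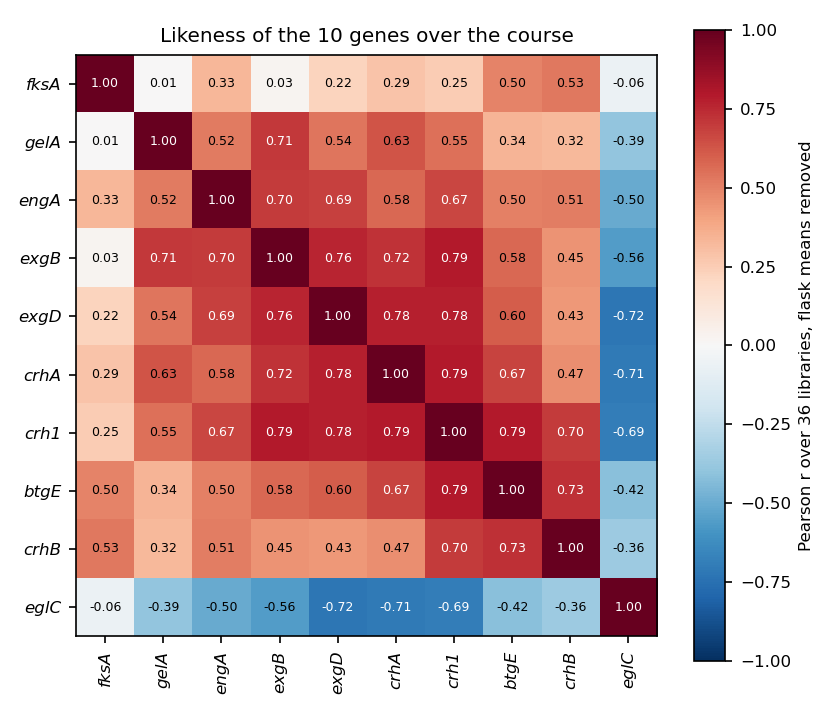
Pearson's r of log2 CPM between each pair of the 10 genes over 36 libraries, with the mean of each flask removed; red cells are positive, blue cells negative and the value is printed in each cell. The block of *exgB*, *exgD*, *crhA* and *crh1* holds values of 0.72 to 0.79, and the row of *eglC* is negative throughout.

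For each gene, the gene with the most similar course among all 8290 was looked up by the same measure. The closest to *btgE* was *benA* (AN1182), which encodes a β-tubulin, with an r of 0.93 over 36 libraries. *crh1* was closest to AN9073, also at 0.93. For *engA* it was AN2756 and for *exgD* AN2827, both at 0.91, and for *exgB* AN9206 at 0.90. *crhB* was closest to AN5757 at 0.89. For *gelA* it was AN1472, for *eglC* *tcsB* (AN1800) and for *crhA* AN4151, each at 0.87. The best match of *fksA* reached 0.77, with AN0979, the lowest of the 10. None of these was another gene of the set.

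A list of 7 further β-glucan genes, all taken from the study's own list, moved the way of the falling members. Other names sought for it, among them *gelC*, *exgA* and *eglA*, matched 0 symbols of the RefSeq annotation. Genes of those names were thus not examined, and the 7 may not be all the remaining β-glucan genes. The list held *gelB*, *gelE*, *sunA*, *sunB*, AN0779, AN2385 and AN4852, and all 7 were called lower at 120 min, with a median log2 fold change of -0.80 against -0.03 for all genes tested. The study had listed each of the 7 as changing in these libraries, so their count is no independent evidence. In that list *gelB* and *sunB* had p-values above the study's own threshold. *gelB* and *gelE*, which encode glucanosyltransferases like *gelA*, had log2 fold changes of -0.49 (standard error 0.17, edgeR adjusted p = 0.0304) and -0.70 (standard error 0.16, edgeR adjusted p = 0.00169). *sunA* and *sunB* encode SUN family proteins, known in yeast for their part in septation, and had -0.46 (standard error 0.08, edgeR adjusted p = 0.000204) and -1.05 (standard error 0.23, edgeR adjusted p = 0.00139). At 60 min 1 of the 7 was called lower. Without flask 1 the count at 120 min was 2 of 7, and without flask 3 it was 4 of 7.

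Genes of the other wall polymers were not all called lower at 120 min. Of all genes, 12.5% were called lower and 16.5% higher at that time. Of 5 α-1,3-glucan genes, 3 were called higher and 2 lower at 120 min. *agsA*, an α-1,3-glucan synthase, went from a mean of 10.5 to 144 CPM, a change of 3.26 on the log2 scale (standard error 0.49, edgeR adjusted p = 2.1e-05), while *agsB*, its paralogue, had -0.60 (standard error 0.19, edgeR adjusted p = 0.0204). Of 7 chitin synthase genes 2, *chsB* and *chsC*, were called lower and none higher. Of 6 chitinase genes 3 were called higher and 2 lower. The study had listed 5 of 5, 3 of 7 and 6 of 6 of these as changing in the same libraries. It had listed all 7 of the other β-glucan genes but only 3 of the 7 chitin synthase genes, so these lists are no like-for-like contrast. In the study's list *agsB*, *amyF*, *chiA*, AN0299 and AN0509 had p-values above its own threshold for a changing gene.

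Markers of growing hyphae fell in the same libraries. Of *actA*, *benA* and *tubA*, which encode actin and tubulins, the first 2 were called lower at 120 min, and the summed level of the 3 went from a range of 4116 to 5548 CPM at 0 min to 3061 to 3549 CPM at 120 min. The summed levels of markers were scaled to the counted reads without TMM factors, unlike the CPM of single genes. Of 7 conidiation markers 6 were tested and 1, *brlA*, was called higher, with a summed level of 20.2 to 23.2 CPM at 0 min and 30.5 to 52 CPM at 120 min. Of 5 autolysis markers 4 were tested, and 3 were called higher and 1 lower, with a summed level of 266 to 288 CPM at 0 min and 410 to 740 CPM at 120 min. No conidiation marker was at 0 in these libraries, and 1 autolysis marker was at 0 in flasks 1 and 3 at 0 min. The part of these changes in the fall of the β-glucan genes was not tested.

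At 15 min flask 1 had 600.6 CPM of *crh1* and 4.15 CPM of *exgB*. The second 15 min library, whose label and column name give different flasks, had 1032 and 10.8 CPM. For *btgE* the values were 1806 and 2256 CPM, and for *fksA* 1654 and 1545 CPM. Adding both libraries under either flask left the counts of called genes at 60 min, at 120 min and over the course at 3, 5 and 7.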

How the data were processed

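RNA was extracted by the authors with Trizol from mycelium of 3 flasks at 13 time points. Per the study's methods the authors mapped the single-end reads by HISAT2 2.1.0 on the genome of FGSC A4 (Ensembl Fungi) and obtained gene counts by HTSeq-count 0.9.1. The release of the annotation and the strand setting are not given there. The deposited values used here are these raw counts, in 12 tables that each set a later time against 0 min. The authors' normalized values, fold changes and p-values from DESeq2 1.20.0 were not used. The 33 repeated 0 min columns were identical between tables. Samples were grouped by their labels. No gene of the set overlaps another in the RefSeq annotation, which was used for names and neighbours only; its assembly may differ from that of the counts, so no coordinates are given.

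Counts were fitted with edgeR 4.0.16 in R 4.3.3 (TMM, quasi-likelihood test, flask as a block, 36 libraries). The 8290 genes tested had reads in at least 2 libraries at every time point. P-values were adjusted by Benjamini-Hochberg over all genes of a comparison, with a threshold of 0.05. The 15 min libraries, of which there were only 2, were left out. The flask of 1 of the 2 is unclear, as it carries the number of flask 3 in its label and of flask 2 in its column. The flask is a block since its libraries come from 1 culture. Deviations from the time point's mean correlated within a flask with a mean r of 0.20, 0.42 and 0.37 in flasks 1, 2 and 3, and between 0 and 120 min with -0.16, 0.16 and 0.27. Standard errors come from edgeR and draw on the spread of other genes. SDs are of the 3 libraries and include counting error. Log2 CPM used a prior count of 2. Alternatives used DESeq2 1.42.0 and limma 3.58.1, other scalings, filters, baselines and flasks left out. All 10 genes were named, with the most similar gene to each; other genes came from written lists. The genes and lists were chosen with earlier results of these data known.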

Additional observations from a re-analysis of the deposited data

Results flagged for a closer look

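For 4 of the genes, all 3 flasks were above their own 0 min library at 1 time and below it at another, so that the direction differed between time points; the difference was not tested. The mean log2 fold change over the 3 flasks was 0.14 ± 0.06 (SD, n = 3) at 25 min and -0.29 ± 0.08 at 90 min for *engA*. For *exgD* it was 0.089 ± 0.079 at 10 min and -0.57 ± 0.21 at 120 min. *exgB* had 0.55 ± 0.14 at 25 min and -1.66 ± 0.78 at 120 min. For *crhA* the values were 0.047 ± 0.043 at 25 min and -0.56 ± 0.10 at 120 min. Of the 4, *exgB* showed the largest early value, and none of the early values passed the test in the fit. The times were picked as the extremes of each gene, and all 3 flasks were above 0 min at 25 min for 16.4% of all genes tested. All 3 flasks were below 0 min at 120 min for 27.6% of all genes tested. The share of all genes with both patterns was not counted, so the 4 genes cannot be set against a background.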

How the results depend on the processing

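Of 280 comparisons of a gene's fold change at 60 or 120 min with its value under another of 14 settings, 249 kept their direction and their side of the threshold, 22 lost the call, 5 gained one and 4 changed sign. Those 4 came from leaving out a flask: *fksA* at 120 min ran from -0.071 (without flask 1; -0.032 without flask 2) to 0.15, *engA* at 120 min from -0.21 to 0.098 (without flask 3) and *eglC* at 60 min from -0.026 (without flask 1) to 0.38. Without the replicate block the genes called were 0 at 60 min (lower: 0.651% of all genes) and 2 over the course (9.72%). They were 0 from 60 to 120 min (lower: 0.121%) and 4 of the 7 other β-glucan genes at 120 min (lower: 6.33%). In the fits of 3 libraries against 3 they were 0 at 60 min, 0 at 120 min, 0 from 60 to 120 min and 0 of the 7. Leaving out 1 flask at a time gave 0 to 3 called at 60 min (lower: 0.362% to 2.9% of all genes) and 4 to 7 at 120 min (4.84% to 9.66%). It gave 2 to 5 over the course (5.3% to 16%). From 60 to 120 min it gave 0 to 1 (lower: 0.145% to 1.46%), and of the 7 it gave 2 to 7. Without the 0 min library of flask 1, 1 gene was called at 60 min (lower: 1.94% of all genes). From 60 to 120 min DESeq2 size factors gave 0 (lower: 1.53% of all genes), DESeq2 2 (2.42%) and limma voom 2 (1.91%). Across pairs of genes the median r was 0.36 with flask means kept. The mean baseline, the robust fit, the placement of the second 15 min library by its column and the omission of flask 1's 0 min library were added after seeing the data. The cause of these differences was not tested. Depth limits *exgB* most, at 8 to 77 reads a library.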
